A study of Mus musculus with 46 samples.

Results

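Imprinted genes outside the Dlk1 domain were followed through the reprogramming of mouse embryonic fibroblasts (MEF) to induced pluripotent stem cells (iPSC). The 10 genes were H19, Igf2, Igf2r, Cdkn1c, Peg3, Snrpn, Mest, Plagl1, Grb10 and Ndn, a set taken by name with no threshold on their values, though earlier results of these data were known. All 10 were present among the 37108 genes of the time-course table and among the 35976 genes of the iPSC table. The MEF came from mid-gestation embryos of Oct4-GFP reporter (OG2) fathers and 129 mothers. They were infected with retroviral Oct4 plus either native Nanog (NanogWT; Nanog+Oct4 in the labels) or a fusion of Nanog with the N-terminal BRG1-interacting piece of SS18 (NanogBiD; NanogN70+Oct4 in the labels). Every time-course group and every iPSC group therefore carried vector Oct4 and a Nanog vector, and only uninfected MEF and mouse embryonic stem cells (mES, also OG2) carried neither. Cells were sampled on 8 days, from D0 (just after infection) to D12. MEF were grown in medium with serum. Infected cells were moved to the iCD3 reprogramming medium at D0 and to the serum-free 2i plus LIF medium at about D7. Across these changes day and medium cannot be told apart. The iPSC and mES were maintained without feeders in the 2i plus LIF medium. Between iPSC and MEF, cell type and medium therefore cannot be told apart either. There were 31 time-course libraries, 2 per combination and day, except that NanogBiD had 1 at D8. Of the 12 iPSC samples, 6 were NanogBiD (iPSC1 4#, 8# and 9#; iPSC2 1#, 2# and 3#) and 6 were NanogWT (iPSC1 1#, 1#-2, 2# and 3#; iPSC2 5# and 6#). The labels do not explain iPSC1 and iPSC2, which are called lines here. The iPSC1 samples were at passage 5 or 6 and the iPSC2 samples at passage 2, and the effect of the line cannot be told apart from that of its passage. The references were 2 MEF libraries at passage 2 and 1 mES library at passage 20. Nothing in the labels says that replicates came from separate embryos or infections, so p-values measure only the spread between these samples.

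An imprinted gene is transcribed mainly from the allele of 1 parent, and DNA methylation laid down in the egg or the sperm tells the alleles apart. At H19 and Igf2 a paternally methylated control region lets the enhancers act on Igf2 on the paternal chromosome and on the noncoding H19 RNA on the maternal chromosome. Igf2r, Cdkn1c and, in most tissues, Grb10 are maternally expressed and restrain growth, while Peg3, Snrpn, Mest, Plagl1 and Ndn are paternally expressed. Several of these genes belong to a fetal growth network that is high in embryonic mesenchyme and low in pluripotent cells. Expression was measured here as FPKM (fragments per kilobase of gene model and per unit of sequencing depth), which does not separate the alleles, so none of the values below says whether an imprint was kept or lost.

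In mm10, H19 lies on chromosome 7 at 142575530 to 142578146 and Igf2 at 142650768 to 142666816, both on the minus strand. Cdkn1c lies further along the same chromosome at 143458339 to 143461059, Peg3 at 6703892 to 6730462, Snrpn at 59982495 to 60450177 and Ndn at 62348277 to 62349928. Igf2r is on chromosome 17 at 12682406 to 12769706, Mest on chromosome 6 at 30733506 to 30748466, Plagl1 on chromosome 10 at 13090832 to 13131694 and Grb10 on chromosome 11 at 11930499 to 12037428. Exons of H19 contain the whole of Mir675 (84 bases), and exons of Snrpn contain the whole of the Snurf model (216 bases). Mest shares 912 exon bases with Copg2 on the opposite strand. Whether the counting used strand is not given in the sources used here, so reads of these overlapping pairs cannot be told apart.

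The libraries differed in 2 ways that touch the results. Relative depth, read from the steps between low FPKM values, was 1.89 to 3.26 in 6 NanogWT libraries (D8, D10 and D12), whereas the remaining 25 time-course libraries lay at 0.830 to 1.13, so depth and combination cannot be told apart from D8 on. The depth of the iPSC table is unknown. The summed level of 10 fibroblast markers was 5701 and 6686 FPKM in the MEF libraries, 1834 to 2273 FPKM at D0, 1708 to 3062 FPKM in NanogWT at D8 to D12 and 246 to 702 FPKM in NanogBiD at D8 to D12. At least 8 of the 10 reached 1 FPKM in each of these libraries, whereas in mES 3 did and 4 were at 0. The summed level of 8 pluripotency markers other than the vector genes was 717 to 2179 FPKM in NanogBiD at D10 and D12, 47.6 to 233 FPKM in NanogWT at the same days and 3627 FPKM in mES. The summed level of 5 neural markers was 161 to 562 FPKM in NanogBiD from D3 on and 64.1 to 327 FPKM in NanogWT, mainly Tubb3 and Nes, and that of 4 skeletal muscle markers was 4.19 to 19.01 FPKM in NanogBiD and 7.22 to 90.5 FPKM in NanogWT. At D3 and D5 the muscle sum was almost all Des, while the muscle-defining Myod1 and Myog were at 0 in the NanogWT libraries. The part of these shifts in the results was not tested. In bulk RNA, fewer cells of a type and less RNA per cell cannot be told apart.

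In the MEF libraries, H19 and Igf2 were the highest of the 10 genes and Snrpn was the lowest. The 2 MEF libraries disagreed for most of the genes. Mest was at 187 and 18.3 FPKM, a 10.3-fold difference between samples with the same label. H19 was at 5081 and 1419 FPKM, Igf2 at 2004 and 804 FPKM, Cdkn1c at 80.8 and 19.98 FPKM, Peg3 at 77.4 and 25.5 FPKM and Plagl1 at 55.5 and 15.6 FPKM. The first library was the higher in each of these 6 genes, which were at least 2-fold apart on the log2(FPKM + 1) scale, and 3.95% of the 16915 genes tested were that far apart. The other 4 genes lay closer, with Grb10 at 339 and 187 FPKM, Igf2r at 76.2 and 71.5 FPKM, Ndn at 67.9 and 76.6 FPKM and Snrpn at 3.78 and 5.54 FPKM. The fibroblast marker sums of the same libraries, given above, were close, and the higher sum was not tested as a source of these gaps.

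H19 showed the largest difference of D0 to MEF among the 10 genes. H19, a noncoding RNA that is also the host of miR-675, was at 54.8 and 65.2 FPKM in NanogBiD and 70.3 and 102 FPKM in NanogWT at D0, which was below both MEF libraries in all 4. It then rose to 535 and 312 FPKM in NanogBiD and 340 and 453 FPKM in NanogWT at D3. The highest values of the course were 941 FPKM in the NanogBiD library of D8 and 1317 and 1423 FPKM in NanogWT at D10, where the second NanogWT library just passed the lower MEF library. At D12 H19 was at 587 and 457 FPKM in NanogBiD and 903 and 639 FPKM in NanogWT. From D0 to D12 the log2 difference was 3.09 (SE 0.28, limma adjusted p = 1.6e-08) in NanogBiD and 3.15 (SE 0.28, limma adjusted p = 3.9e-08) in NanogWT. All D12 libraries were above all D0 libraries, and the rise did not differ measurably between the combinations (interaction -0.06, SE 0.40, limma adjusted p = 0.93). The log2 difference of D0 to MEF was -5.22 (SE 0.35, limma adjusted p = 9.1e-10).

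The combinations differed in H19 at single days only, and in opposite directions. At D7 H19 was at 574 and 424 FPKM in NanogBiD and 265 and 222 FPKM in NanogWT, without overlap (log2 difference 1.02, SE 0.28, limma adjusted p = 0.010). At D10 it was at 829 and 564 FPKM in NanogBiD and 1317 and 1423 FPKM in NanogWT (log2 difference -1.0001, SE 0.28, limma adjusted p = 0.0056). Both values stand at the 2-fold limit. The D7 call was lost without NanogBiD replicate 1 (0.80, limma adjusted p = 0.10) or NanogWT replicate 2 (0.90, limma adjusted p = 0.081), and with a common total or quantile normalization it fell just under 2-fold (0.98 and 0.97). The D10 call was lost without NanogBiD replicate 2 (-0.72, limma adjusted p = 0.091) or, for its size alone, without NanogWT replicate 2 (-0.94).

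Mir675 had its own row in the gene table, and that row held the gene most like H19 over the 16 group means (Pearson r = 0.96 across groups, on the log2 scale). Since the Mir675 model lies wholly in an H19 exon and the libraries were made from mRNA, the row counts the host transcript and not the mature miRNA. Of the imprinted genes followed here, H19 had the largest SD among the iPSC samples on the log2 scale, though Igf2 had the wider fold range. The mature sequences encoded within H19 are therefore shown, as its known small RNA product (RefSeq, GRCm38.p6, chromosome 7, minus strand, with capitals for the seed, bases 2 to 8):
mmu-miR-675-5p (142577112 to 142577133): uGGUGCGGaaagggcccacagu
mmu-miR-675-3p (142577078 to 142577099): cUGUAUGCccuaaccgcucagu
The 2 seeds differ, so the arms do not belong to 1 seed family.

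Igf2, the fetal growth factor, fell early and did not follow H19. It was at 399 and 349 FPKM in NanogBiD and 353 and 436 FPKM in NanogWT at D0, below both MEF libraries (log2 difference of D0 to MEF -1.73, SE 0.24, limma adjusted p = 1.3e-05). At D7 it was at 193 and 153 FPKM in NanogBiD and 94.3 and 93.8 FPKM in NanogWT, its lowest level in NanogWT (log2 difference 0.86, SE 0.18, limma adjusted p = 0.0012, under the 2-fold limit). After D7 the courses parted. NanogBiD went on to 135 and 137 FPKM at D12, and NanogWT was back at 331 and 353 FPKM at D10 and 285 and 264 FPKM at D12. NanogBiD was the lower at D10 (log2 difference -1.15, SE 0.18, limma adjusted p = 2.1e-05) and at D12 (-1.01, SE 0.18, limma adjusted p = 0.00011), with no overlap at either day. Without NanogBiD replicate 2 the D10 value was -0.90, and without NanogWT replicate 1 the D12 value was -0.95, both under the 2-fold limit with the adjusted p still below 0.05. Quantile normalization moved the D12 value to -0.88. From D0 to D12 Igf2 fell by 1.45 in NanogBiD (SE 0.18, limma adjusted p = 9.3e-07), and in NanogWT the value was -0.51 (SE 0.18, limma adjusted p = 0.029), under the 2-fold limit. The interaction was -0.94 (SE 0.25, limma adjusted p = 0.0070), also under it, and reached -1.03 without NanogBiD D0 replicate 2 and -1.09 without NanogWT D0 replicate 2, and -1.05 and -1.04 with a common total and quantile normalization.

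The level of H19 relative to Igf2 turned over during the first days. The FPKM ratio of H19 to Igf2 was 1.76 and 2.54 in MEF, 0.137 to 0.233 in the 4 libraries of D0, 0.245 to 0.316 in the 4 of D1, 1.05 to 2.10 in the 4 of D3 and 2.42 to 5.76 in the 11 libraries of D8 to D12. The ranges of D0 and D1 did not overlap those of any later day in either combination. At D10 it was 4.38 and 4.54 in NanogBiD and 3.98 and 4.03 in NanogWT, although both genes differed between the combinations at that day. At D8 it was lower in NanogBiD (4.22 against 5.53 and 5.76) and at D12 higher (4.34 and 3.35 against 3.17 and 2.42), without overlap at any of these days. In mES both genes were low, at 7.98 FPKM for H19 and 0.635 FPKM for Igf2.

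**Figure D1:**
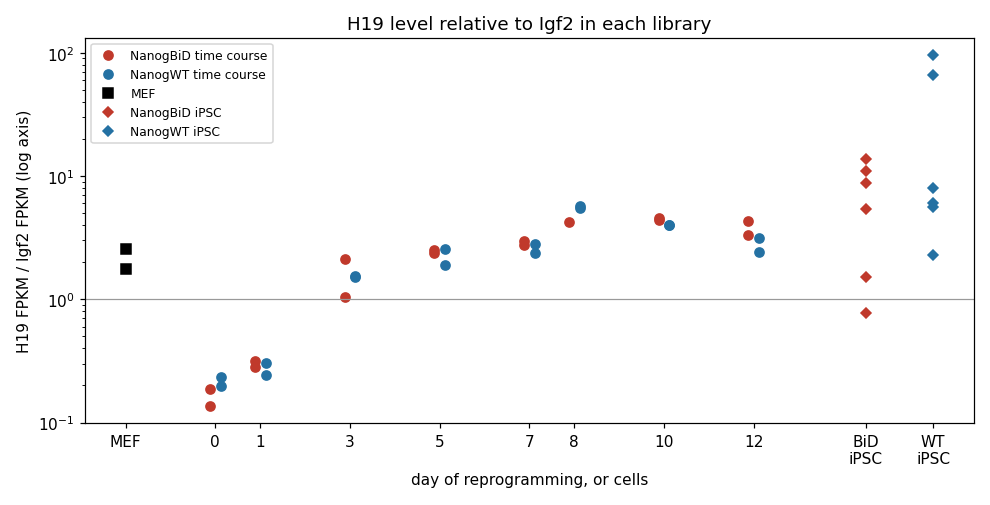
Ratio of H19 FPKM to Igf2 FPKM (log axis) in each library, by day for the time course and pooled over lines for the iPSC; each point is 1 library and the grey line marks equal levels. The ratio lies below 1 at D0 and D1 (0.137 to 0.316), at 1.05 or above from D3 on, and spreads from 0.767 to 95.1 among the 12 iPSC samples, which come from the separately quantified transcript table. The ratio of 95.1 is that of NanogWT iPSC1 1#-2, in which Igf2 was at only 0.244 FPKM.

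Igf2r, the receptor that clears IGF2, was lower in NanogBiD from D3 on. It was at 31.003 and 34.9 FPKM in NanogBiD and 27.8 and 47.8 FPKM in NanogWT at D0, which overlap. At D3 it was at 26.2 and 42.7 FPKM in NanogBiD and 63.0 and 77.1 FPKM in NanogWT (log2 difference -1.04, SE 0.22, limma adjusted p = 0.0036), and at D10 at 25.1 and 24.2 FPKM against 53.5 and 49.7 FPKM (-1.04, SE 0.22, limma adjusted p = 0.00046). At D5, D7 and D12 the differences were -0.66, -0.75 and -0.89, with limma adjusted p of 0.044, 0.014 and 0.0021, all under the 2-fold limit. NanogBiD and NanogWT did not overlap at any of these days. The D3 call was lost without NanogBiD replicate 1 (-0.69, limma adjusted p = 0.093) or NanogWT replicate 2 (-0.89, limma adjusted p = 0.064), and the D10 value fell to -0.98 without NanogWT replicate 1. The NanogBiD libraries of D10 and D12 (22.7 to 25.1 FPKM) approached mES (17.7 FPKM). The interaction of combination and time was -0.74 (SE 0.31, limma adjusted p = 0.066), and -1.12 (limma adjusted p = 0.0048) without NanogWT D0 replicate 2.

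Grb10, an adaptor that inhibits insulin and IGF receptor signalling, fell within the first day in both combinations. It was at 322 and 332 FPKM in NanogBiD and 235 and 305 FPKM in NanogWT at D0, between the MEF libraries, and at 101 to 110 FPKM in all 4 libraries of D1. From D0 to D12 it fell by 1.65 in NanogBiD (SE 0.16, limma adjusted p = 3.3e-08), and the value in NanogWT was -0.998 (SE 0.16, limma adjusted p = 5.3e-05), just short of the 2-fold limit and past it without NanogWT D0 replicate 1 (-1.18) or D12 replicate 2 (-1.16). At no day did the combinations differ by 2-fold. The limma adjusted p was below 0.05 at D7 (log2 difference 0.48, adjusted p = 0.030) and D10 (0.46, adjusted p = 0.019), with NanogBiD the higher. In mES Grb10 was at 8.71 FPKM, 30.2-fold below the mean of the MEF libraries.

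Of the 7 other genes of the IGF2 axis, 2 were higher in NanogBiD at D7 and 3 at D10 and at D12, and none was lower. Of all genes, 5.79%, 15.4% and 13.5% were higher at these days, and 4.65%, 12.3% and 9.97% were lower. The median log2 differences of the 7 were 0.20, 0.12 and 0.57, beside 0.08, 0.10 and 0.17 for all genes. The genes called as higher were those of the RNA-binding proteins that bind Igf2 mRNA. Igf2bp1 was at 14.02 to 15.4 FPKM in NanogBiD and 1.81 to 1.82 FPKM in NanogWT at D7, and at 47.0 to 48.8 against 4.05 to 9.62 FPKM at D10, with log2 differences of 2.48 and 2.74 (limma adjusted p = 2.5e-07 and 1.8e-08). Igf2bp3 differed by 1.17, 1.74 and 1.26 at D7, D10 and D12, and Igf2bp2 by 1.60 and 1.38 at D10 and D12. The signalling receptor Igf1r fell from D0 to D12 in NanogBiD (from 22.2 to 23.5 FPKM to 5.92 to 8.46 FPKM, log2 difference -1.56, limma adjusted p = 1.7e-06). From D0 to D12 1 of the 7 was called as higher and 2 as lower in NanogBiD, where 24.6% and 10.2% of all genes were. In NanogWT 0 and 2 were, where 12.2% and 3.95% of all genes were. By the interaction 3 were higher and 0 lower in NanogBiD (13.4% and 10.5% of all genes). A fall particular to NanogBiD was thus not shown.

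Cdkn1c, which encodes the cyclin-dependent kinase inhibitor p57, rose in both combinations. It was at 40.8 and 45.0 FPKM in NanogBiD and 51.9 and 62.7 FPKM in NanogWT at D0. At D12 it was at 223 and 284 FPKM in NanogBiD and 227 and 184 FPKM in NanogWT, above both MEF libraries in all 4. The log2 differences from D0 to D12 were 2.53 (SE 0.19, limma adjusted p = 1.4e-09) and 1.82 (SE 0.19, limma adjusted p = 3.7e-07). The interaction was 0.70 (SE 0.28, limma adjusted p = 0.052), so a difference in the rise was not shown. Between the combinations the largest difference was at D7, when NanogBiD was at 68.9 and 66.6 FPKM and NanogWT at 121 and 114 FPKM (log2 difference -0.79, SE 0.19, limma adjusted p = 0.0047, under the 2-fold limit). At D10 the order was the opposite, with 269 and 286 FPKM in NanogBiD and 180 and 200 FPKM in NanogWT (0.55, SE 0.19, limma adjusted p = 0.023, also under it). In mES Cdkn1c was at 0.310 FPKM, so the course moved away from the mES level. Over the 16 group means Cdkn1c and H19 correlated at Pearson r = 0.83 on the log2 scale, a description of groups that share days and starting cells.

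Of the other imprinted genes of distal chromosome 7, Phlda2, a placental growth regulator, was at 5.63 and 8.05 FPKM in NanogBiD and 0.216 and 0.640 FPKM in NanogWT at D7 (log2 difference 2.46, limma adjusted p = 5.1e-06), and at 45.3 FPKM in the single NanogBiD library of D8. Osbpl5 was lower in NanogBiD at D7, D10 and D12 (-1.38, -2.67 and -2.14). These 2 neighbours of Cdkn1c thus differed in opposite directions at days when Cdkn1c did not pass the 2-fold limit.

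Of the 10 tested, Plagl1 and Mest were the 2 genes whose change from D0 to D12 was called as different between the combinations. In both the change was lower in NanogBiD, where 23.9% of all 16842 genes were called (13.4% higher, 10.5% lower). Igf2 (-0.94), Grb10 (-0.65) and Snrpn (0.76) were under the 2-fold limit, with limma adjusted p of the interaction of 0.0070, 0.029 and 0.040. Plagl1 encodes the zinc finger protein ZAC1, which regulates other imprinted genes, and Mest an enzyme of the hydrolase family that is high in growing mesoderm. Plagl1 was at 67.6 and 91.6 FPKM in NanogBiD and 24.1 and 49.4 FPKM in NanogWT at D0. At D12 it was at 47.8 and 60.3 FPKM in NanogBiD and 210 and 382 FPKM in NanogWT. NanogWT thus rose by 3.00 on the log2 scale (SE 0.36, limma adjusted p = 1.9e-06), and the NanogBiD value was -0.54 (SE 0.36, limma adjusted p = 0.20). The interaction was -3.54 (SE 0.51, limma adjusted p = 2.6e-05).

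The log2 difference of NanogBiD to NanogWT was 1.16 at D0, -0.91 at D5, -1.09 at D7, -1.82 at D10 and -2.38 at D12, with limma adjusted p of 0.11, 0.099, 0.030, 0.00028 and 2.0e-05. The D10 and D12 libraries of NanogWT (210 to 382 FPKM) lay above every MEF and mES library (15.6 to 55.5 FPKM). Plagl1 had the widest replicate spread of the 10 genes, with a pooled SD of 0.40 on the log2 scale within time-course groups, larger than in 92.0% of the genes tested. The D7 call was lost without NanogBiD replicate 1 (-0.62, limma adjusted p = 0.31) or NanogWT replicate 2 (-0.80, limma adjusted p = 0.22). The D0 difference was called without NanogWT replicate 2 (1.67, limma adjusted p = 0.020). The NanogWT libraries of D8 to D12, in which Plagl1 was highest, were also the deep ones and those with the higher fibroblast marker sums, and the part of either was not tested.

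Mest took different courses early. It was at 155 and 160 FPKM in NanogBiD and 79.8 and 116 FPKM in NanogWT at D0, without overlap (log2 difference 0.70, SE 0.21, limma adjusted p = 0.088). At D1 it was at 35.6 and 42.6 FPKM in NanogBiD and 73.1 and 72.8 FPKM in NanogWT, without overlap (log2 difference -0.89, SE 0.21, limma adjusted p = 0.020, under the 2-fold limit), and without NanogBiD replicate 2 it was called (-1.02, limma adjusted p = 0.049). At D3 NanogBiD was at 47.5 and 58.4 FPKM and NanogWT at 233 and 196 FPKM (log2 difference -2.003, SE 0.21, limma adjusted p = 2.4e-06), and at D5 the values were 70.5 and 57.3 against 257 and 243 FPKM (-1.96, SE 0.21, limma adjusted p = 1.4e-06). By D7 NanogBiD had caught up, with 176 and 232 FPKM against 218 and 265 FPKM, which overlap. In the single NanogBiD library of D8 Mest was the higher, at 189 FPKM against 95.6 and 133 FPKM in NanogWT. At D10 it was at 105 and 107 FPKM in NanogBiD and 118 and 119 FPKM in NanogWT (-0.16, SE 0.21, limma adjusted p = 0.54). At D12 NanogBiD was again the lower, with 40.2 and 49.9 FPKM against 85.9 and 118 FPKM (-1.15, SE 0.21, limma adjusted p = 0.00011). Without NanogWT replicate 2 the D12 value was -0.92, under the 2-fold limit. At D3, a fit of the 4 compared libraries alone called neither Mest (adjusted p = 0.12) nor Igf2r (adjusted p = 0.28), and it called 0 of all 16842 genes (2613 had an unadjusted p below 0.05), so that fit does not separate these genes from the others. The skeletal muscle marker sum was 40.6 to 53.3 FPKM in NanogWT and 6.02 to 19.01 FPKM in NanogBiD at D3 and D5, when Mest was higher in NanogWT, and 1 of its 4 genes (Des) was at 1 FPKM or more. Its part in the Mest difference was not tested. Mest fell by 1.79 from D0 to D12 in NanogBiD (SE 0.21, limma adjusted p = 3.7e-07) and did not change measurably in NanogWT (0.07, SE 0.21, limma adjusted p = 0.83), with an interaction of -1.86 (SE 0.29, limma adjusted p = 6.0e-05).

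The overlapping Copg2 was also lower in NanogBiD at D3 and D5 (-1.39 and -1.47, limma adjusted p = 3.3e-05 and 1.0e-05), and it was the gene most like Mest over the 16 group means (r = 0.93). Because the gene models share exon bases, the Copg2 row may hold Mest reads or the reverse. Klf14, a transcription factor gene of the same cluster that shares no exon with Mest, was lower too at D3, D5 and D7 (-1.44, -1.52 and -1.51).

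The promoters of Mest and Plagl1 are shown because these genes parted between the combinations and because theirs were the only windows, of the 8 genes with one, to hold TGCCGC, the hexamer recognised by ZFP57, which protects imprints. RefSeq promoter windows (mm10, GRCm38.p6) were found for 8 of the 10 genes, all except H19 and Cdkn1c. In the 250 bases before the start, TGCCGC on either strand occurred in 3 of the 17 windows of these genes and in 8.68% of all 32851 windows. The capitals mark GCGGCA, which is TGCCGC read on the opposite strand:
Mest, chr6:30737803-30738052, plus strand: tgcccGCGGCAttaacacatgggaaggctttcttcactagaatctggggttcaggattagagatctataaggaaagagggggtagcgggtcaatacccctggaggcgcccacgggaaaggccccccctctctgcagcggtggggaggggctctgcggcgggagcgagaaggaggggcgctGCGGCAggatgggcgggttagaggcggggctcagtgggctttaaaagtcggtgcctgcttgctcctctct
Plagl1, chr10:13090582-13090831, plus strand: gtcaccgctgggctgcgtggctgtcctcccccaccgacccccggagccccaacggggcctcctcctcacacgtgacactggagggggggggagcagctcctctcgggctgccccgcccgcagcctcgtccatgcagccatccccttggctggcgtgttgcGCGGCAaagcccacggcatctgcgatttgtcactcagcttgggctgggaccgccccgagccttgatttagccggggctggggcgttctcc
The Mest window held 2 hexamers and 14 CpG and the Plagl1 window 1 hexamer and 19 CpG, where the median window held 6 CpG. A second Mest window that begins 3 bases earlier holds the same hexamers, so the 3 windows are not independent. Sequence beyond these windows was not searched. The matches are letters in these windows, and binding was not measured here.

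Peg3 and Snrpn, which are paternally expressed, were higher in NanogBiD at D7. Peg3 encodes a zinc finger protein of embryonic mesenchyme and brain, and it dropped from 8.68 to 25.02 FPKM over the 4 libraries of D0 to 3.24 to 5.62 FPKM over the 4 of D1. At D7 it was at 23.2 and 22.6 FPKM in NanogBiD and 4.91 and 5.77 FPKM in NanogWT, the widest separation of the course (log2 difference 1.92, SE 0.33, limma adjusted p = 0.00018). NanogWT then rose to 8.51 and 11.1 FPKM at D12 while NanogBiD was at 19.2 and 17.05 FPKM (0.84, SE 0.33, limma adjusted p = 0.039, under the 2-fold limit). The NanogWT replicates of D0 lay at 8.68 and 25.02 FPKM, and without replicate 2 the D0 difference was called (1.06, limma adjusted p = 0.030), while without replicate 1 the fall in NanogWT (-1.28, limma adjusted p = 0.0020) and the interaction (1.197, limma adjusted p = 0.018) were. With all libraries none of these 3 was called.

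Snrpn, which encodes a spliceosome protein, was the gene that rose towards mES. NanogBiD went from 7.86 and 10.2 FPKM at D0 through 4.40 and 3.60 FPKM at D3 to 13.9 and 14.1 FPKM at D7, 21.9 and 17.8 FPKM at D10 and 26.9 and 24.5 FPKM at D12, with mES at 34.4 FPKM. NanogWT stayed at 3.24 to 8.36 FPKM in the 10 libraries of D3 to D10 and reached 14.06 and 15.1 FPKM at D12. NanogBiD was the higher at D7 (1.25, SE 0.20, limma adjusted p = 8.8e-05) and D10 (1.48, SE 0.20, limma adjusted p = 3.6e-06), and at D12 the difference was 0.78 (SE 0.20, limma adjusted p = 0.0030), under the 2-fold limit. The rise from D0 to D12 was 1.42 in NanogBiD (SE 0.20, limma adjusted p = 4.2e-06) and 0.66 in NanogWT (SE 0.20, limma adjusted p = 0.013, under the 2-fold limit). The Snurf row moved with Snrpn at r = 1.00 over the group means and shares its reads.

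Ndn, a growth suppressor of neurons and mesenchyme that lies in the same cluster as Snrpn, took another course. It fell from 112 to 156 FPKM over the 4 libraries of D0 to 35.6 to 58.2 FPKM at D7 and stood at 73.2 to 86.1 FPKM at D12, near the MEF libraries (67.9 and 76.6 FPKM). At no day did the combinations differ in Ndn by 2-fold, and at D7 the log2 difference was -0.48 (limma adjusted p = 0.029). Other genes of the Peg3 and Snrpn clusters also differed at late days. Usp29 and Zim3, next to Peg3, were higher in NanogBiD at D10 (1.24 and 1.67) and D12 (1.84 and 2.12), and Mkrn3, of the Ndn cluster, was too (1.42 and 1.33).

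**Figure D2:**
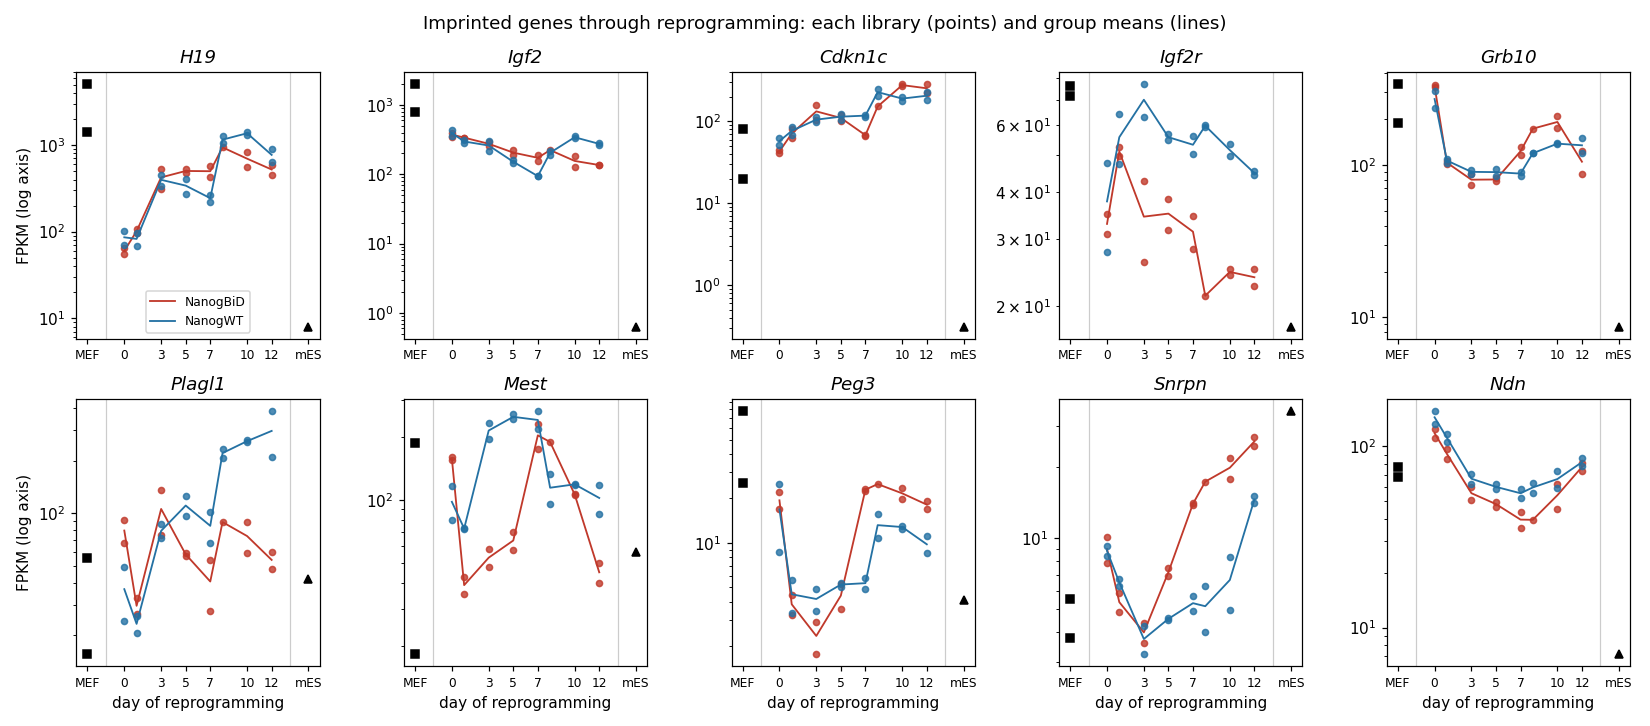
FPKM (log axis) of the 10 imprinted genes by day of reprogramming in NanogBiD (red) and NanogWT (blue); points are single libraries, lines join group means, black squares are the 2 MEF libraries and the black triangle is mES. At D12 Igf2, Mest and Plagl1 were called as lower in NanogBiD, and Igf2r was lower but under the 2-fold limit. Snrpn rises earlier in NanogBiD (13.9 and 14.1 FPKM at D7 against 4.93 and 5.70 FPKM). Cdkn1c ends above both MEF libraries in both combinations while mES is at 0.310 FPKM.

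Counted over days, the first of the 10 genes past both limits were found at D3. At D0 none of the 10 was called, where 0.760% of all genes were (0.422% higher and 0.338% lower in NanogBiD), and 2 had an unadjusted p below 0.05. At D1 none was either, where 1.33% of all genes were (0.368% higher, 0.962% lower), and 1 had an unadjusted p below 0.05. At D3 it was 2 of 10 (Igf2r and Mest, both lower in NanogBiD; of all genes 3.70% were called, 1.25% higher and 2.45% lower), at D5 it was 1 (Mest, lower; of all genes 6.48%, 3.20% higher and 3.28% lower) and at D7 it was 4 (H19, Peg3 and Snrpn higher, Plagl1 lower; of all genes 10.4%, 5.79% higher and 4.65% lower). At D10 it was 5 (Snrpn higher; H19, Igf2, Igf2r and Plagl1 lower; of all genes 27.8%, 15.4% higher and 12.3% lower) and at D12 it was 3 (Igf2, Mest and Plagl1, all lower; of all genes 23.4%, 13.5% higher and 9.97% lower). The share at D12 is near the background. No gene was called at every day from D3 on. Mest was not called at D7 or D10, and Plagl1 was called at D7, D10 and D12. With the adjusted p alone 9 of 10 genes were called at D7, all but Mest, where 28.4% of all genes were. In the single NanogBiD library of D8, described without a test, Snrpn was at 17.4 FPKM against 4.03 and 6.29 FPKM in NanogWT, and Igf2r at 21.3 against 60.1 and 59.5 FPKM.

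**Figure D3:**
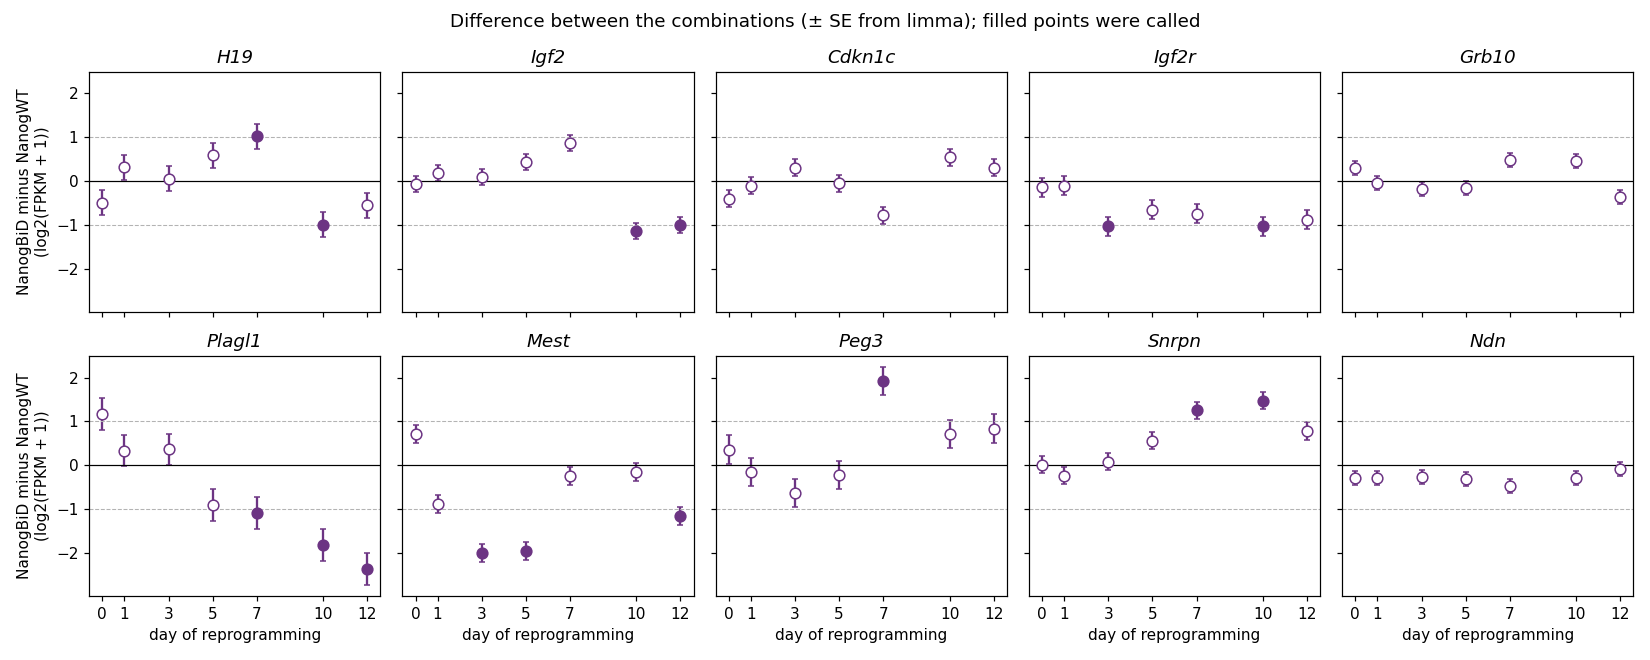
Difference of NanogBiD to NanogWT on the log2(FPKM + 1) scale for each gene and day with 2 libraries per combination; bars are the SE from limma, dashed lines mark 2-fold, and filled points were called (adjusted p below 0.05 and at least 2-fold). Mest stands at -2.003 and -1.96 at D3 and D5 and near 0 at D7, while Plagl1 goes from 1.16 at D0 to -2.38 at D12.

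From D0 to D12, 6 of 10 genes were called in NanogBiD, where 34.7% of all genes were (24.6% up, 10.2% down), and 3 of 10 in NanogWT, where 16.2% were (12.2% up, 3.95% down). In NanogBiD H19, Cdkn1c and Snrpn rose and Igf2, Mest and Grb10 fell. In NanogWT H19, Cdkn1c and Plagl1 rose and none fell. The median log2 difference of all genes was 0.34 in NanogBiD and 0.19 in NanogWT, and quantile normalization moved these to 0.01 and -0.02. Each of the genes named here kept its direction and its call under quantile normalization and under a common total.

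Against MEF, 4 of 10 genes were lower at D0 (H19, Igf2, Igf2r and Peg3), where 8.51% of all genes were called (4.39% higher, 4.13% lower). At D12 2 of 10 were higher than MEF and 5 lower in NanogBiD (of all genes 22.3% were higher and 8.73% lower) and 6 of 10 in NanogWT (17.3%, 12.9% higher and 4.37% lower). Cdkn1c and Snrpn were above MEF and H19, Igf2 and Peg3 below MEF in both, by limma log2 differences in NanogBiD of 2.61, 2.25, -2.37, -3.21 and -1.25. In addition Igf2r and Grb10 were below MEF in NanogBiD, and Plagl1 was above MEF in NanogWT (3.21). Fitted with the compared groups alone, Cdkn1c, H19, Grb10 and Peg3 lost their calls in NanogBiD (limma adjusted p = 0.052, 0.063, 0.057 and 0.15). In NanogWT Cdkn1c, H19 and Peg3 did (limma adjusted p = 0.085, 0.14 and 0.067). At D0 Igf2, Igf2r and Peg3 did (limma adjusted p = 0.087, 0.073 and 0.26). Of all genes that fit called 29.2%, 15.3% and 4.42%. Because the MEF libraries disagree, several of the log2 differences rest on which MEF library is used. Without the first, H19 of NanogWT at D12 was at -0.90 (limma adjusted p = 0.054), Peg3 was at -0.56 at D0 and -0.47 at D12 of NanogBiD, Grb10 of NanogBiD at D12 was at -0.85, and Plagl1 of NanogBiD at D12 was at 1.72. Cdkn1c, Mest and Plagl1 were then called as higher at D0 (1.27, 2.69 and 1.68). Mest at D12 of NanogBiD went from -0.40 with both MEF libraries to 1.25 without the first and -2.04 without the second, so its direction against MEF is not determined. In NanogWT at D12 it went from 0.76 to 2.40 without the first. Without the second MEF library, Snrpn at D0 was at 1.05 and Grb10 of NanogWT at D12 at -1.34. Without NanogWT D0 replicate 1, Igf2r and Peg3 at D0 were at -0.88 and -0.99, and without NanogBiD D12 replicate 2 Peg3 of NanogBiD was at -1.17 (limma adjusted p = 0.063).

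Among 55 other imprinted genes, of which 45 could be tested in the time course, at D7 6 were higher and 3 lower in NanogBiD, at D10 11 and 5, and at D12 9 and 4. Of all genes, too, more were higher than lower, at 5.79% and 4.65%, 15.4% and 12.3%, and 13.5% and 9.97%. Their median log2 difference was -0.05, 0.28 and 0.09 at these days, beside 0.08, 0.10 and 0.17 for all genes. The largest difference at D7 was in Peg10, a retrotransposon-derived placental gene, at 142 and 161 FPKM in NanogBiD and 4.30 and 5.75 FPKM in NanogWT (log2 difference 4.67, limma adjusted p = 5.6e-08). The summed level of 6 trophoblast markers was 7.50 and 8.48 FPKM in NanogBiD and 0.227 and 0.409 FPKM in NanogWT at the same day, when both Peg10 and the placental Phlda2 were higher in NanogBiD. In NanogBiD 1 of the 6 markers reached 1 FPKM, and the part of this shift was not tested. Slc38a4, an amino acid transporter, followed with 2.43 (limma adjusted p = 2.2e-06). At D12 the largest was Dcn, a matrix proteoglycan that fibroblasts express, at -3.41 (limma adjusted p = 2.0e-08).

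Of 12 genes that keep or remove imprints, 4 were higher in NanogBiD at D7, 8 at D10 and 9 at D12. Of all genes, 5.79%, 15.4% and 13.5% were higher at these days, and 4.65%, 12.3% and 9.97% were lower. None of the 12 was lower at any day tested. The median log2 differences of the 12 at D7, D10 and D12 were 0.75, 1.67 and 1.61, beside 0.08, 0.10 and 0.17 for all genes. Zfp57, which encodes the factor named above, was at 14.6 and 14.9 FPKM in NanogBiD and 4.94 and 7.49 FPKM in NanogWT at D10 and at 19.6 and 28.2 against 5.23 and 6.99 FPKM at D12 (1.79, limma adjusted p = 2.3e-06), with mES at 37.9 FPKM. Its corepressor Trim28 was at 301 and 356 FPKM in NanogBiD and 116 and 134 FPKM in NanogWT at D12. The maintenance methylation genes Dnmt1 and Uhrf1 were higher by 1.46 and 1.76 at D12, and Dppa3, which protects maternal methylation in the zygote, was at 73.9 and 131 FPKM against 1.57 and 12.9 FPKM. The pluripotency marker sums differed in the same direction at these days, as given above.

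In the iPSC the values are sums over transcripts from a separate table, and they were compared only with the MEF and mES columns of that table. Against MEF, 8 of 10 genes were called, where 40.7% of all 13312 genes tested were (21.9% higher, 18.8% lower). Snrpn was higher (log2 difference 2.14, SE 0.14, limma adjusted p = 5.8e-08). Igf2 was lower by the most, with 0.244 to 25.5 FPKM over the 12 samples (median 2.45) against 2089 and 860 FPKM in MEF (-8.49, SE 0.70, limma adjusted p = 3.6e-07). H19 (-6.72), Grb10 (-4.31), Cdkn1c (-3.97), Ndn (-2.98), Peg3 (-2.81) and Igf2r (-2.17) were also lower, with limma adjusted p of 0.00021 or less. All 12 iPSC samples were below both MEF libraries in each of these 7 genes. Mest and Plagl1 were not called with both MEF libraries. Without the second MEF library Mest was (-2.83, limma adjusted p = 0.00070), and without the first Plagl1 was (1.51, limma adjusted p = 0.0073).

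For some genes most iPSC samples stood on 1 side of the mES library. Cdkn1c was above mES (0.304 FPKM) in 12 of 12 samples, at 0.636 to 3.38 FPKM, and Igf2 in 11 of 12. Mest was below mES (51.3 FPKM) in 12 of 12, at 9.63 to 42.4 FPKM, and Snrpn was below mES (30.4 FPKM) in 11 of 12. With 1 mES library these are descriptions.

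Several of these genes spread more among the iPSC samples than most genes did. H19 ranged from 2.85 FPKM in NanogBiD iPSC1 4# to 161 FPKM in NanogWT iPSC2 5#, 56.6-fold, with a median of 20.6 FPKM. Its SD over the 12 samples was 1.63 on the log2 scale, larger than in 99.6% of the 12456 genes tested. The SD of Igf2 (1.16) exceeded 98.8% of genes and that of Ndn (0.97) 97.9%. Grb10, Mest and Cdkn1c followed at 94.7%, 91.4% and 85.9%, Plagl1 at 77.5%, Igf2r at 70.2% and Peg3 at 65.4%. Only Snrpn, at 16.4 to 32.4 FPKM and a rank of 46.9%, varied less than the median gene.

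High values of different genes came from different samples. H19 was at 161 FPKM in NanogWT iPSC2 5#, where Igf2 was at 2.43 FPKM and Ndn at 8.19 FPKM. NanogBiD iPSC1 9# had the highest Igf2 (25.5 FPKM), Ndn (21.3 FPKM), Igf2r (34.1 FPKM), Cdkn1c (3.38 FPKM) and Peg3 (7.63 FPKM), with H19 at 38.9 FPKM. NanogWT iPSC1 2# had the highest Grb10 (29.8 FPKM) and the lowest Plagl1 (17.5 FPKM) and Peg3 (3.24 FPKM). Mest was lowest in NanogBiD iPSC1 8# (9.63 FPKM) and 9# (13.2 FPKM), the only samples below both MEF libraries for it.

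Fibroblast marker sums also differed among the iPSC samples. Their sum was 1350 FPKM in NanogBiD iPSC1 9#, with 9 of 10 markers at 1 FPKM or more, 423 FPKM in NanogWT iPSC1 3#, 147 FPKM in NanogWT iPSC1 1#, 119 FPKM in NanogBiD iPSC1 8#, 42.8 FPKM in NanogBiD iPSC1 4# and 28.1 FPKM in NanogWT iPSC2 5#. The other 6 samples were at 2.50 to 7.77 FPKM, beside 10.8 FPKM in mES and 6358 and 7253 FPKM in MEF. The sum was thus highest in the sample with the highest Igf2, Ndn and Igf2r. It was 28.1 FPKM in the sample with the highest H19 and 3.59 FPKM in that with the highest Grb10. The part of fibroblast markers in these values was not tested. Pluripotency markers were at 1 FPKM or more for 8 of 8 in every iPSC sample, with sums of 1937 FPKM in 9# and 2816 to 5190 FPKM in the others.

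NanogWT iPSC1 1# and 1#-2 share a number in the labels and are at passages 5 and 6. Whether they are 1 clone is not stated. They entered the fits as separate samples, and a fit with their mean as 1 sample changed none of the iPSC counts of these genes (0 between combinations, 0 between lines, 8 against MEF). They were close in H19 (24.9 and 23.2 FPKM), Plagl1 (43.4 and 45.0 FPKM) and Snrpn (22.2 and 23.1 FPKM) but 17.1-fold apart in Igf2 (4.16 and 0.244 FPKM) and 2.51-fold apart in Grb10 (10.4 and 4.15 FPKM). Of the 10 genes 2 were at least 2-fold apart on the log2(FPKM + 1) scale between them, and 2.84% of all genes were. Fibroblast marker sums of the pair were 147 and 7.77 FPKM.

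Between the combinations, none of the 10 genes was called in the iPSC, where limma called 0 of 12456 genes, and none of the 10 had an unadjusted p below 0.05 (201 of all genes did). The errors were large for the variable genes, as for H19 (log2 difference -0.48, SE 0.88) and Igf2 (0.79, SE 0.54), and small for Snrpn (-0.24, SE 0.13). Between the lines, none was called either, where 0.883% of all genes were (0.506% higher, 0.377% lower in iPSC1), and 2 had an unadjusted p below 0.05. Ndn was higher in iPSC1 than in iPSC2 by 1.15 (SE 0.43, limma adjusted p = 0.13), and it was called without NanogWT iPSC1 2# (1.38, limma adjusted p = 0.029).

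**Figure D4:**
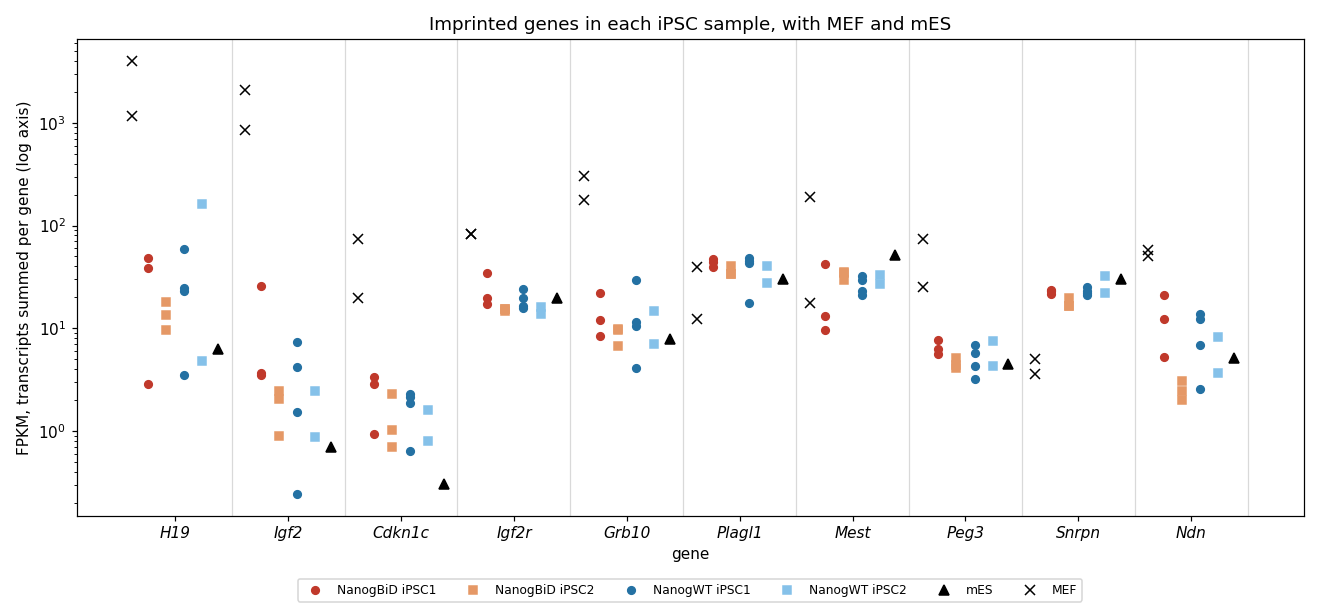
FPKM (log axis, transcripts summed per gene) of the 10 imprinted genes in the 12 iPSC samples, by combination and line; crosses are the 2 MEF libraries, triangles the mES library, and each mark is 1 sample. H19 spreads from 2.85 to 161 FPKM among the iPSC samples while Snrpn stays at 16.4 to 32.4 FPKM, and the iPSC samples lie below both MEF libraries in H19, Igf2, Cdkn1c, Igf2r, Grb10, Peg3 and Ndn.

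The transcript table adds which transcript carried each gene. H19 was mainly NR_130973.1, with 87.1% and 96.2% of the sum in MEF and 84.4% to 100% in the iPSC, and Grb10 mainly NM_010345.4 (94.9% and 96.2% in MEF, 70.4% to 100% in the iPSC). Igf2 in MEF was divided among NM_001122737.2 (42.0% and 43.9%), NM_001122736.2 (38.2% and 38.7%) and NM_010514.3 (17.9% and 19.3%). These shares agreed between the MEF libraries within 2 percentage points although the levels differed. Snrpn in MEF and mES was all NM_013670.3, whereas in the iPSC NM_001082961.1 and NM_001082962.1 were each at 1 FPKM or more in 7 of 12 samples and reached 7.72 and 10.2 FPKM. Such shares are estimates by the quantification, which divides reads over overlapping models, and low genes such as Cdkn1c gave no stable shares in the iPSC.

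By likeness over the 16 group means of the time course (Pearson r of log2(FPKM + 1), a description), the nearest genes, apart from the overlapping Mir675, Snurf and Copg2, were Ogfod3 for H19 (r = 0.95), Mrpl52 for Igf2 (0.92), Ext1 for Igf2r (0.96), Zfp316 for Cdkn1c (0.94), Peg3os for Peg3 (0.98), Hoxb2 for Snrpn (0.96), Lzts3 for Plagl1 (0.92), Col4a6 for Grb10 (0.93), Abcc1 for Ndn (0.95) and Avil for Mest (0.78). None of the 10 genes had another of the 10 among its 3 nearest.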

How the data were processed

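RNA-seq libraries of the time course, MEF, mES and iPSC were analysed. The authors trimmed reads with Trim Galore 0.6.4, aligned them to mm10 with HISAT2 2.2.1 and deposited the StringTie 2.2.1 output as FPKM, per gene for 34 libraries and per transcript for 15. The annotation and the use of strand are not given in the sources used here. FPKM of the 106520 transcripts were summed per gene. Since FPKM are not counts, limma 3.58.1 in R 4.3.3 (lmFit, eBayes with a trend) was fitted to log2(FPKM + 1) of every gene that reached 1 FPKM in 2 or more samples, one fit for all time-course groups, one with MEF added, and 2 for the iPSC, with line as a covariate between combinations. A fold change on this scale understates that of low genes. Genes were called at a Benjamini-Hochberg adjusted p below 0.05, over all genes, and at least 2-fold. Recovery was checked by simulation, with 200 altered genes per comparison. It was 97.5% for NanogBiD against NanogWT at D5 (16842 genes) and 97% for D12 of NanogBiD against MEF. Between the combinations in the iPSC it was 95.5%. These rates hold only for the size of change simulated, and recovery of changes near the 2-fold limit was not tested. All 10 genes were reported, with other genes from lists of imprinted genes, imprint keepers and the IGF2 axis, and the nearest 3 by correlation of group means. The 10 genes, taken by name, and the lists were chosen with earlier results of these data known. D8, with 1 NanogBiD library, and mES were described without a test. Alternatives were a pseudocount of 0.1, no filter, a common total, quantile normalization, no fold limit, the compared groups alone, a replicate block, NanogWT iPSC1 1# and 1#-2 averaged and leaving out each sample. Relative depth was read from the steps between low FPKM values, and with no counts, counting intervals were not computed. Python 3.11.15 with pandas 2.3.3 and numpy 2.4.6 made the tables and matplotlib 3.10.9 the figures.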

Additional observations from a re-analysis of the deposited data

Results flagged for a closer look

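Among the 6 NanogBiD iPSC samples, NanogBiD iPSC1 9# stood apart as the highest in Igf2 (25.5 FPKM; gap to the next sample 0.654 of the whole range) and in Igf2r (34.1 FPKM; 0.654 of the range), both above Dixon's 95% critical value for 6 samples. Of 20 sets of 6 samples tested this way 2 passed, and chance passes about 1 in 20. The fibroblast marker sum of this sample was also the highest of the iPSC, at 1350 FPKM, and its part in these values was not tested.

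The change from D0 to D12 differed between the combinations in Mest (NanogBiD minus NanogWT -1.86 on the log2 scale, limma adjusted p = 6.0e-05) and in Plagl1 (-3.54, limma adjusted p = 2.6e-05), each by the interaction term of the fit over all time-course groups.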

How the results depend on the processing

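The counts below are of the 10 imprinted genes. Under other settings 99 such counts stayed within 1.5 times the reported count and 12 did not. Without the 2-fold limit, the count went from 0 to 1 at D1, from 1 to 2 at D5, from 4 to 9 at D7, from 3 to 6 at D12, from 3 to 7 for D12 against D0 in NanogWT and from 2 to 5 for the interaction, where the same setting called 3.27%, 16.4%, 28.4%, 50.7%, 38.1% and 37.1% of all genes. With the compared groups fitted alone, which leaves fewer samples to estimate the spread, it went from 2 to 0 at D3, from 4 to 2 at D7, from 4 to 1 for D0 against MEF, from 7 to 3 for D12 of NanogBiD against MEF and from 6 to 3 for D12 of NanogWT against MEF. Over all genes that setting called 0 at D3 in place of 623, 1447 at D7 in place of 1758, 748 for D0 against MEF in place of 1440, 4944 in place of 5252 for NanogBiD against MEF and 2582 in place of 2924 for NanogWT against MEF. With each sample left out in turn the count was 0 to 2 at D0, 0 to 1 at D1, 1 to 2 at D3, 1 at D5, 2 to 5 at D7, 3 to 5 at D10, 2 to 3 at D12, 6 for D12 against D0 in NanogBiD and 3 to 5 in NanogWT, 2 to 4 for the interaction, 2 to 6 for D0 against MEF, 6 to 8 and 6 to 7 for D12 of NanogBiD and NanogWT against MEF, 0 between combinations in the iPSC, 0 to 1 between lines and 8 to 9 for the iPSC against MEF.

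Mest in NanogBiD at D12 against MEF reversed, from -0.40 to 1.25 without the first MEF library, and was -2.04 without the second. Of the values of single genes, 917 kept direction and side of the threshold with 1 sample left out and 1064 under other settings, while 23 and 28 gained a call and 19 and 18 lost it. No call reversed under a common total or quantile normalization. The cause of these changes was not tested.

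Same-numbered replicates of NanogBiD and NanogWT correlated in their deviations at r = 0.39 at D7, 0.23 at D0, 0.14 at D1, 0.12 at D10, 0.02 at D12, -0.04 at D5 and -0.06 at D3, and those of D12 and D0 at 0.42 in NanogWT and 0.02 in NanogBiD. Not every pair was over 0.1, so the numbers were not taken to pair the samples. With a replicate block the count at D0 went from 0 to 1 (Plagl1, 1.16, limma adjusted p = 0.028), where 0.891% of all genes were called. The iPSC comparisons had no such fit. The deeper NanogWT libraries from D8 on limit every comparison of the combinations at those days, since depth could not be separated from combination. The unknown depth of the iPSC table limits statements on genes that are low there, such as Cdkn1c and Igf2, and on ratios to Igf2.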
